A study of Drosophila melanogaster with 3 samples.

Results

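The vacuolar ATPase (V-ATPase) subunit genes were taken as all protein-coding genes whose symbol begins with Vha followed by a capital letter or a digit, which gave 33 of the 13945 protein-coding genes annotated on the main chromosome arms of Drosophila melanogaster. Binding of Atf3, a basic leucine zipper transcription factor of the ATF/CREB family, had been profiled by chromatin immunoprecipitation with sequencing in 3 biological replicates, which form 1 group. Every replicate came from whole embryos aged 0 to 24 h, males and females mixed, of the transgenic strain A3-3-GFP, which carries Atf3 with a C-terminal green fluorescent protein tag, and the tag was the target of the antibody. The labels name no promoter for the transgene, no untagged strain and no treatment, so the results below describe 1 condition and contain no contrast between conditions.

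A V-ATPase is a rotary proton pump with a soluble V1 sector, which hydrolyses ATP, and a membrane Vo sector, through which protons pass. It acidifies endosomes, lysosomes and secretory vesicles, and in insects it also energises transport across the apical membrane of epithelia such as the Malpighian tubule. In the fly several subunits are made from a single gene, whereas others have families of paralogs, of which usually 1 is broadly expressed and most others are known from particular tissues. The members were therefore placed in 3 classes. There were 5 single-copy genes (Vha55, Vha44, Vha26, Vha13 and VhaSFD), 9 leading paralogs (Vha68-2, Vha36-1, Vha14-1, Vha100-2, Vha16-1, VhaPPA1-1, VhaAC39-1, VhaM9.7-b and VhaAC45) and 19 other paralogs. Leading and other paralogs were told apart from general knowledge of the families, and no expression data entered the analysis. The class of other paralogs is thus not a measured set of tissue-restricted genes. Vha68-1, for one, is a member that is not clearly restricted.

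A gene was counted as bound when the summit of a peak lay within 500 bp of any of its transcription start sites (TSSs). Of the 33 genes, 8 had such a summit in the strictest list, of 2896 peaks, which the authors filtered by irreproducible discovery rate (IDR). That rate scores a peak by whether its rank is repeatable between replicates. The 2896 peaks were also the 2896 calls of highest signal in the pooled list, which was derived from all 3 replicates. A gene's place in the IDR list therefore does not by itself show that its own rank was repeatable. The 8 genes are 24.2% of the members, and the share of all protein-coding genes was 14.2%. The bound genes were Vha55, Vha100-2, Vha16-1, Vha16-5, Vha36-1, Vha68-1, Vha13 and Vha68-2, in order of peak signal. They comprised 2 of 5 single-copy genes, 4 of 9 leading paralogs and 2 of 19 other paralogs, and 5 of 13 V1 genes, 3 of 18 Vo genes and 0 of 2 accessory genes. The members had been chosen with earlier results of these data known, and genes are not replicates, so no test was made of these counts against the background or between classes.

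The sequences that bear on these peaks are shown first, for members whose peak window could be printed. Each reads 5′ to 3′ on the strand of the gene and comes from the release 6 (dm6) reference genome. Summit windows reach 100 bp to either side of the summit and were printed without UTR bases. The line of Vha16-5 thus holds 117 of the 201 bases of its window. Capitals mark every match to a motif named in the sentence that introduces the line. The only full CRE palindrome among the members, TGACGTCA, the site of ATF/CREB dimers, was at Vha55, at chr3R:12627762-12627769. It overlapped an E-box, CACGTG, by the bases TG, and both are in capitals in the 30 bases at chr3R:12627751-12627780, minus strand:
Vha55 site: gtgacggCACGTGACGTCAcagcagattca
The upstream stretch of that summit window, from 128 bp before the most upstream Vha55 TSS to the base before it (chr3R:12627830-12627957, minus strand), held none of the motifs searched:
Vha55 upstream: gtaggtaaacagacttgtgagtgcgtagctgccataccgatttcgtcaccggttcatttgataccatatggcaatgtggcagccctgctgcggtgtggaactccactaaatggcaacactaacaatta
The CRE core, TGACGT or its reverse complement ACGTCA, is in capitals in the windows of Vha68-1 (chr2L:13004108-13004285, minus strand) and Vha13 (chr3R:19644387-19644582, minus strand), in which ATCGAT, the inner hexamer of the DRE motif, is also in capitals:
Vha68-1: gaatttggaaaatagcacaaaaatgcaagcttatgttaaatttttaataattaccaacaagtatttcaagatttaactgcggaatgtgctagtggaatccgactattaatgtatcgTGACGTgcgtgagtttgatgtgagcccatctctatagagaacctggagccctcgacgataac
Vha13: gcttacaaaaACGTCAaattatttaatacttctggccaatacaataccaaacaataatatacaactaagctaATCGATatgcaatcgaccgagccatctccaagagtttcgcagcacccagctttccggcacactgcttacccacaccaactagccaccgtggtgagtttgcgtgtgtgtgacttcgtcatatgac
The windows of Vha68-2 (chr2L:12974071-12974271, plus strand) and Vha16-5 (chr2L:10737228-10737344, minus strand) held no CRE core, and the capitals mark ATCGAT and, in Vha68-2, CTCTC, the reverse complement of the GAGA factor pentamer GAGAG:
Vha68-2: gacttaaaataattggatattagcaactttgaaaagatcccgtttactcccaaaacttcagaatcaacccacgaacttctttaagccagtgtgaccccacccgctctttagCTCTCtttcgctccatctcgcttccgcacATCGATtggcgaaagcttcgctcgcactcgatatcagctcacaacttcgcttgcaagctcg
Vha16-5: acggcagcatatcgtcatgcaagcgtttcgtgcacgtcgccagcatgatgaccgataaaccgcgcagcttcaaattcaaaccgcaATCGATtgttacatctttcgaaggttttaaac

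Among the V1 genes, the strongest peak was at Vha55 (FBgn0005671), the single gene for the B subunit, which alternates with the A subunit in the ATP-hydrolysing head. The peak spanned chr3R:12627730-12627936 and its summit lay 28 bp upstream of the most upstream of 3 TSSs, in intergenic sequence between Vha55 and the divergent gene Snx3, a sorting nexin gene whose TSS was 174 bp away on the other side. Signal is the peak caller's value as the authors deposited it, and it ranks peaks within a list only. The Vha55 peak had a signal of 357 and ranked 159 of 2896. In the replicate lists, each of which held 30000 calls, its signal was 187, 75.2 and 93.1 and its rank 83, 369 and 255 in replicates 1, 2 and 3. It was thus near the top of the list in each replicate, and highest in replicate 1. The CRE palindrome printed above began 88 bp from the summit on the Vha55 side, within the peak. It lay 60 bp after the most upstream TSS, inside the 5′ UTR of the longest transcript, and 55 and 68 bp before the other 2 TSSs.

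The A subunit carries the catalytic sites and is encoded by 3 genes that lie together on 2L. Vha68-2 (FBgn0263598), the leading paralog, had a peak at chr2L:12973971-12974370, 151 bp upstream of the nearest of its 5 TSSs, with no other gene's TSS within 500 bp. Its signal was 112 and its rank 1708, the lowest of the 8. The replicate ranks were 1431, 3064 and 1973, with signals of 55.9, 22.4 and 31.3, so that replicate 2 placed it just outside its own first 2896 calls. Vha68-1 (FBgn0265262) had a peak at chr2L:13003985-13004384, 78 bp upstream of its TSS, with a signal of 139 and rank 1148. Its replicates were further apart, at rank 6157, 493 and 775 with signals of 25.1, 64.5 and 53.2: it was further down the list in replicate 1 than in both others. The same summit was 295 bp from the TSS of mTor, a divergent gene for the kinase that couples growth to nutrients. Vha68-3, which starts 178 bp beyond the end of Vha68-2, had no summit in any list.

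The other bound V1 genes encode parts of the rotor and the peripheral stalk. Vha36-1 (FBgn0022097), the leading gene for the D subunit of the central rotor, had a peak at chr2R:15541170-15541569 with a signal of 141 and rank 1121. Its replicate ranks of 1177, 1555 and 1707 were the closest together of the 8 relative to their mean (1480 ± 273, SD, n = 3). The summit lay 65 bp upstream of the Vha36-1 TSS but 7 bp from that of CG8187, a divergent gene. The TSS of a further gene, asRNA:CR45927, was 483 bp from the summit. Neither paralog, Vha36-2 or Vha36-3, had a summit in the IDR or pooled list. Vha13 (FBgn0283536), the single gene for the G subunit of the peripheral stalk, had a peak at chr3R:19644282-19644681, 96 bp upstream of its TSS, with a signal of 138 and rank 1167. Its signals were 64, 24.1 and 41.7 and its ranks 1097, 2735 and 1196, and no other TSS lay within 500 bp.

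The remaining V1 genes had no IDR peak. Vha44, the single gene for subunit C, came nearest, with a pooled call of signal 70.6 at rank 3474, against a lowest IDR signal of 79.8. Its best summit in replicate 1 had rank 1695, replicate 2 had none in the window, and replicate 3 had one at rank 8248. VhaSFD, for the regulatory subunit H, had a pooled call of signal 40.2 at rank 9102, with its summit −366 bp from the TSS. Its best summits in the replicate lists had ranks of 3795, 12562 and 19860. They lay at 230, −333 and −346 bp, so that of replicate 1 was on the other side of the TSS. Vha26, for subunit E of the peripheral stalk, had a pooled call of signal 38.2 at rank 10201. Thus all 5 single-copy genes had a call in the pooled list and 2 of them an IDR peak. Neither gene of subunit F, Vha14-1 or Vha14-2, had a summit in any of the 5 lists.

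**Figure D1:**
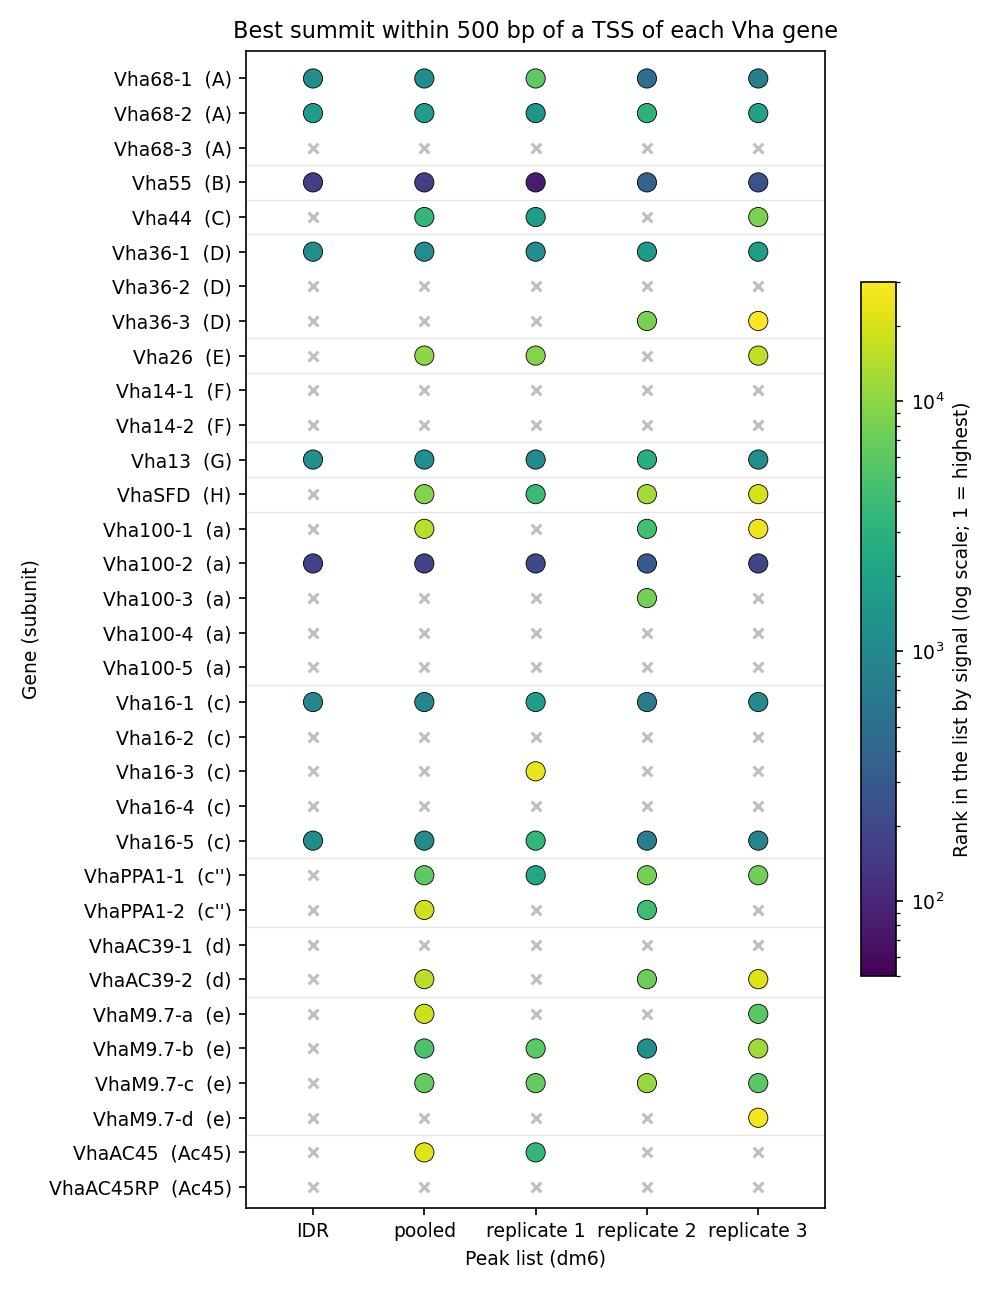
All 33 Vha genes, ordered by subunit (rows), in the 5 dm6 peak lists (columns). A filled circle is the highest-signal summit within 500 bp of a TSS, coloured by its rank in that list on a log scale (dark, high signal), and a grey cross marks no summit. Vha55 and Vha100-2 are dark in all 5 columns, and 10 rows hold crosses only.

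Among the Vo genes, Vha100-2 (FBgn0028670) had the strongest peak. It is the leading gene for subunit a, which forms the proton path beside the rotor ring. The peak spanned chr3R:18397121-18397327, with a signal of 346 and rank 178. Replicate signals were 135, 82 and 108 and ranks 203, 310 and 179, near the top of each list. The summit lay 324 bp upstream of the inner of its 2 TSSs but 257 bp downstream of the TSS of Vti1b, a divergent SNARE gene, within the 5′ UTR of Vti1b. It is therefore nearer to Vti1b than to that TSS, and it also lies inside the longer transcript of Vha100-2. Vha100-4, which starts 517 bp beyond the end of Vha100-2, had no summit in any list, and neither did Vha100-5. Vha100-1, the neuronal paralog, had a pooled call of signal 32.2 at rank 15102, and Vha100-3 had a summit in replicate 2 only, at rank 7729.

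The c subunits form the proteolipid ring that turns in the membrane. Vha16-1 (FBgn0262736), the leading paralog, had a peak at chr2R:6632968-6633367, 78 bp upstream of its nearest TSS, with no other gene's TSS within 500 bp. The signal was 150 and the rank 997, with replicate signals of 48.9, 52.8 and 45.4 and ranks of 1803, 717 and 1035. Vha16-5 (FBgn0032294) was the other bound member, at chr2L:10737128-10737527, with a signal of 142 and rank 1103. Its summit was 17 bp from the TSS of the divergent gene CG12299 and 285 bp from its own. Replicate signals were 35, 51.9 and 49.7 and ranks 3388, 751 and 888, so it was lower in the list of replicate 1 than in both others, as Vha68-1 was. Vha16-2 and Vha16-4 had no summit in any list, and Vha16-3 had one in replicate 1 only, at rank 24308.

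None of the other Vo or accessory genes had an IDR peak. VhaM9.7-b, the leading gene of the small subunit e, had a pooled call of signal 57.4 at rank 4758, with its summit −361 bp from the TSS. Its best summits in the replicate lists, at ranks 5838, 1167 and 11978, were not matched to that call. They lay at 151, −268 and −363 bp, so that of replicate 1 was on the other side of the TSS. VhaPPA1-1, for the ring subunit c″, had a pooled call of signal 49.2 at rank 6113, with its summit 97 bp from the TSS. Its best summits in the replicate lists, also not matched, had ranks of 2259, 7893 and 7461 and lay at 57, −12 and 416 bp. VhaM9.7-c had a pooled call of signal 47.5 at rank 6509, and its best summits in the replicate lists had ranks of 6437, 11262 and 5779. VhaAC39-1, the leading gene of subunit d, had no summit in any list. Its paralog VhaAC39-2 had a pooled call of signal 31.9, VhaM9.7-a one of 29.4 and VhaPPA1-2 one of 29.3, and VhaM9.7-d had a summit in replicate 3 only, at rank 27518. VhaAC45, for the accessory subunit Ac45, had a pooled call of signal 27.1 and was found in replicate 1 only, at rank 3494.

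**Figure D2:**
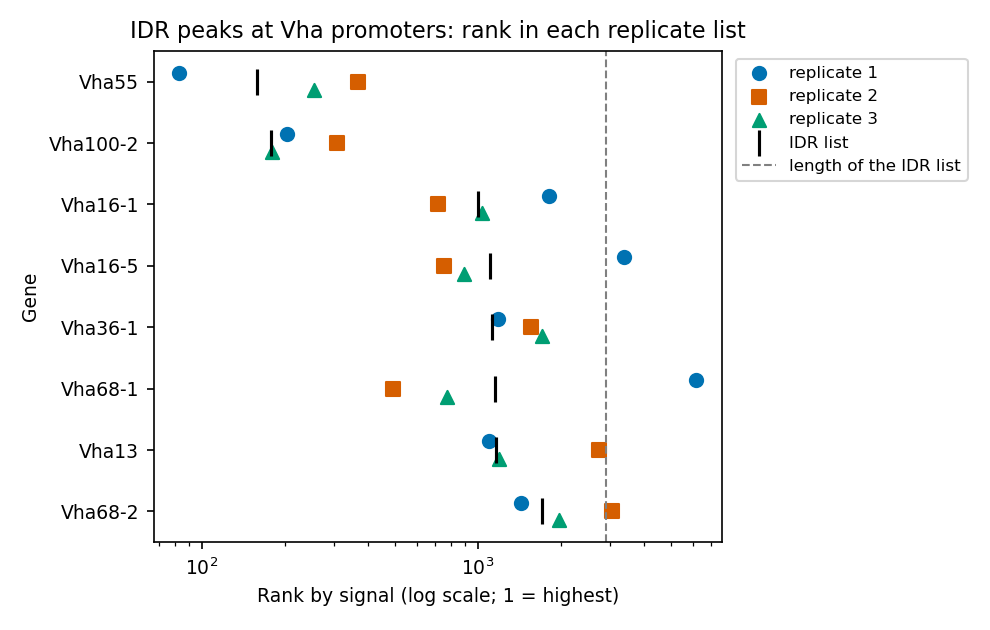
Rank of each of the 8 IDR peaks at Vha promoters in the list of each replicate (coloured symbols) and in the IDR list (black bar), on a log axis where 1 is the highest signal; the dashed line is at rank 2896, the length of the IDR list. Vha55 and Vha100-2 lie between 83 and 369 in every replicate, whereas Vha68-1 runs from 493 to 6157.

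All 8 peaks were found in all 3 replicate lists when at least 50% of the shorter interval had to overlap, which is a description, since the IDR list was derived from those lists. No share over all IDR peaks is given beside it, so the count does not set the members apart. Replicates were compared further by taking the 2896 calls of highest signal from each, called top peaks. These gave 8 Vha genes in each replicate, or 24.2%, where all protein-coding genes gave 13.2%, 14.9% and 12.8% in replicates 1, 2 and 3. The same number hid different members. Vha100-2, Vha13, Vha16-1, Vha36-1 and Vha55, 5 genes (15.2%), were in all 3 sets, as were 8.12% of all protein-coding genes. At least 1 set held 11 members (33.3%) and 19.9% of all protein-coding genes. Replicate 1 added Vha44, VhaPPA1-1 and Vha68-2, replicate 2 added Vha16-5, Vha68-1 and VhaM9.7-b, and replicate 3 added Vha16-5, Vha68-1 and Vha68-2. The other paralogs thus supplied 0 genes in replicate 1 and 2 in each of the others.

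The relaxed lists, which include background calls, told less about the members. The pooled list of 27754 calls held a summit for 19 of 33 genes (57.6%), and for 46.8% of all protein-coding genes. The whole replicate lists held 16, 17 and 19 of the members (48.5%, 51.5% and 57.6%), beside 51.7%, 43.1% and 40.8% of all protein-coding genes, so that in replicate 1 the members were below the background. By class, the pooled list held 5 of 5 single-copy genes, 7 of 9 leading paralogs and 7 of 19 other paralogs. Over the whole replicate lists the mean shares were 86.7% ± 23.09, 70.4% ± 6.42 and 35.1% ± 12.15 (SD, n = 3) for the same classes. Over the top peaks they were 46.7% ± 11.55, 48.1% ± 6.42 and 7.02% ± 6.08 (SD, n = 3). In each of the 5 lists and the 3 top sets, single-copy genes and leading paralogs had a larger share with a summit than other paralogs. These sets all come from the same 3 replicates and overlap, so they are not independent observations. A single-copy share moves by 20% with each gene, so no order between single-copy genes and leading paralogs can be read. In no list was a summit found for 10 of 33 genes (30.3%), a share close to the 31.1% of all protein-coding genes without one. Of the 10, 8 were other paralogs, a class that makes up 57.6% of the members (Vha100-4, Vha100-5, Vha14-2, Vha16-2, Vha16-4, Vha36-2, Vha68-3 and VhaAC45RP).

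**Figure D3:**
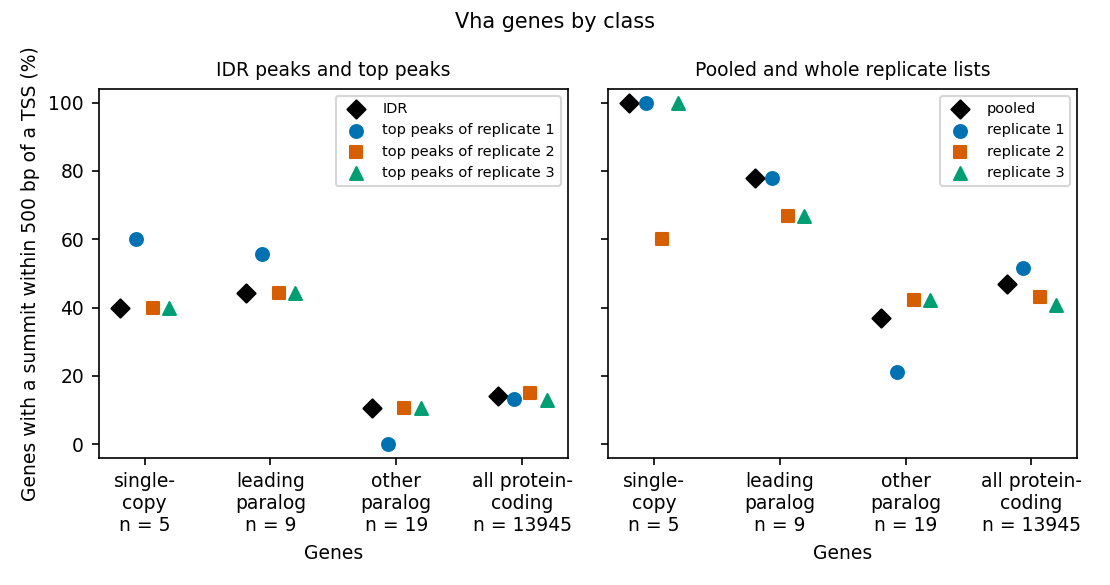
Share of genes (%) with a summit within 500 bp of a TSS for 5 single-copy, 9 leading and 19 other Vha genes and for all 13945 protein-coding genes, in the IDR list and the top peaks of each replicate (left) and in the pooled and whole replicate lists (right). Each symbol is 1 list; on the left the other paralogs lie between 0% and 10.5% and both other classes between 40% and 60%.

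The position of the peaks was like that at other bound promoters. All 8 summits lay upstream of the member's nearest TSS, as did 87.1% of the summits at the 1974 bound protein-coding genes. The median offset was −87 bp for the members and −122 bp for all bound genes. The median signal was 142 and 131, respectively. Another gene's TSS was within 500 bp of the summit at 5 of the 8 members (62.5%) and at 62.1% of all bound genes. The member's own TSS was the nearest at 5 of 8 (Vha55, Vha16-1, Vha68-1, Vha13 and Vha68-2) and at 69.9% of all bound genes. The peaks at Vha55 and Vha100-2 were narrower than the rest, at 207 bp against 400 bp. Peaks under 300 bp were found at 15.2% of all bound genes. Which gene of a shared promoter a peak serves cannot be told from peak lists.

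**Figure D4:**
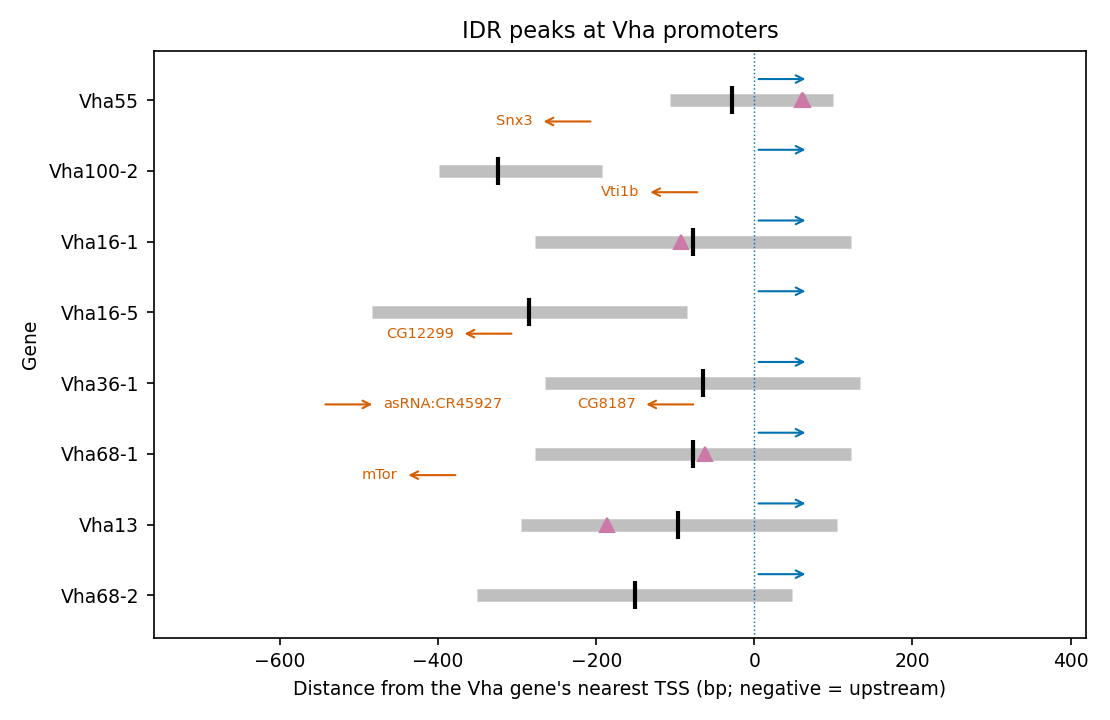
The 8 IDR peaks at Vha promoters, drawn to scale against the nearest TSS of the Vha gene (0 bp, blue arrow along the gene; negative, upstream). Grey bars are the peak intervals, black ticks the summits, pink triangles CRE cores within 100 bp of the summit, and orange arrows the start sites and directions of other genes within 500 bp of the summit. All ticks lie left of 0, between −28 and −324 bp, and 5 genes have an orange arrow.

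Motifs were then counted on both strands, as matches and not as sites. In the window from 100 bp before to 100 bp after the summit, the CRE core TGACGT was present in 4 of the 8 member peaks (Vha55, Vha16-1, Vha68-1 and Vha13), and in 6.47% of the 1469 IDR peaks at promoters of protein-coding genes. The match began 16 bp downstream of the summit at Vha68-1, 15 bp upstream at Vha16-1 and 90 bp upstream at Vha13. At Vha55 it is part of the full palindrome, which was in 1.57% of the promoter peaks. The full DRE motif, TATCGATA, the site of the replication-gene regulator DREF, occurred in 0 of 8 and in 8.3% of the promoter peaks. The AP-1 motif TGANTCA, of Jun and Fos dimers, was in 0 of 8 and 4.77%, shares so low that a count of 0 in 8 peaks says little. The inner DRE hexamer ATCGAT, which was searched only after the sequences had been seen, was in 4 of 8 (Vha16-5, Vha36-1, Vha13 and Vha68-2) and in 17.3%. GAGAG was in 2 of 8 (Vha100-2 and Vha68-2) and 21.2%.

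Over the promoters of all 33 members, from 250 bp before to 50 bp after each TSS, the CRE core was in 7 (21.2%), namely Vha13, Vha16-1, Vha44, Vha55, Vha68-1, Vha68-2 and VhaPPA1-1. All protein-coding genes had it in 9.1%, and the bound ones in 14.6%. Of the 7, 5 had an IDR peak, and Vha44 and VhaPPA1-1, 2 of the next genes by pooled signal, did not. Of all protein-coding genes with the core, 22.7% were bound. The core at Vha68-2 was 139 bp before an inner TSS and not in the summit window. The CRE palindrome was in 1 member, Vha55, and in 101 genes in all (0.724%), of which 35.6% were bound. A CRE palindrome that overlaps an E-box was in 2 genes of the 13945, Vha55 and Ist1, a count made after the Vha55 sequence was seen. TCACGTGA, the core of the CLEAR element of lysosomal genes that TFEB, and in the fly Mitf, recognises, was in 2 members and in 28 genes in all (0.201%). The members were Vha44, 48 bp before a TSS, and Vha68-2, in an intron 99 bp before an inner TSS. The latter, at chr2L:12975303-12975310, began 1132 bp from the IDR summit and thus outside the peak. Capitals mark it in the 30 bases at chr2L:12975292-12975321, plus strand:
Vha68-2 site: tcaaagctctgTCACGTGAaacgaaagctc
With windows of 100 bp to either side, Vha16-1 also held it. An E-box, with or without those outer bases, was in 5 members (15.2%), Vha44 and Vha68-2 among them, and in 5.3% of all genes. The DRE motif was in 2 members (6.06%) and 10.2% of all genes, AP-1 in 2 members and 8.24%, and GAGAG in 11 members (33.3%) and 36.3%. The inner DRE hexamer ATCGAT was in 10 members (30.3%), in 26.3% of all genes and in 35.5% of the bound ones. Genes with several TSSs have more sequence searched: 25 members had 1 TSS, and Vha68-2 had 5.

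Genes that act with the V-ATPase were described from a list of 12 partners and regulators and a list of 12 lysosomal genes. Of the partners, 4 had an IDR peak. Ragulator, a complex that binds the pump at the lysosome, was unevenly represented among its 5 genes. Lamtor3 and Lamtor5 had IDR peaks with signals of 193 and 88.9, Lamtor2 and Lamtor4 had pooled calls only, with signals of 38.8 and 52.2, and Lamtor1 had no summit in any list. RagA-B, a GTPase held there by Ragulator, had a peak of signal 93.7 that was nearest to the TSS of CG11970, and its partner RagC-D had neither an IDR nor a pooled summit. The TLDc-domain gene mtd had a signal of 176. For these 4 genes the best summit in the window was taken in each replicate list, without matching to the IDR peak. The ranks in replicates 1, 2 and 3 were 1182, 729 and 385 for Lamtor3, 2637, 2631 and 3216 for Lamtor5, 2727, 2252 and 2889 for RagA-B and 819, 1073 and 501 for mtd. ATP6AP2, an accessory subunit outside the symbol rule, had a pooled call of signal 39 and no IDR peak. The V1 assembly factors Rbcn-3A and Rbcn-3B and the gene for Mitf had neither. Of the lysosomal genes, 1 had an IDR peak, CtsB (cathepsin B, signal 83.2), and CtsL1, Npc2a, Ppt1 and Cln3 had a pooled call only. The best summits at CtsB in replicates 1, 2 and 3 had ranks of 2630, 1645 and 8413. None of these 24 genes held TCACGTGA in the promoter window. With 4 of 12 and 1 of 12 genes, beside a background of 14.2%, no statement on either list is made beyond the counts.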

How the data were processed

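Peak lists on dm6 were analysed: an IDR list, a pooled list and 1 list for each of the 3 replicates. Each gives intervals with a summit and a signal value per peak, which the authors deposited. Not given in the sources used here are its scale, the software that made the alignments and called the peaks, and the cut-off of the IDR filter. Relaxed lists, which include background calls, were made from the alignments with a control file, per the notes the authors deposited beside the lists. The IDR peaks were the 2896 pooled calls of highest signal. Read depth is unknown. The dm3 lists were not used.

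The summit (column 2 plus column 10) was compared with TSSs of Ensembl release 115 on the main chromosome arms, without pseudogenes and transposable elements (17896 genes, 23722 TSSs). Peaks were matched at 50% of the shorter interval. Sequence came from the release 6 RefSeq genome; none was printed from arm 2R or from UTRs beyond 30 bases. All 24 listed partner and lysosomal genes were matched by symbol. Every member was named. Replicate signals and ranks were given for members with an IDR summit, and pooled signals and replicate ranks for the 5 next by pooled signal. For those 5 and the partner and lysosomal genes, the best summit in the window was taken in each list, without matching between lists. Other genes were named where they share or lie nearest to a peak or are on those lists; Ist1 was chosen after its sequence match was seen. The members and lists were chosen with earlier results of these data known. Counts carry no test, and spreads are over 3 replicates. Summit assignment was tested on simulated data. Python 3.11.15, numpy 2.4.6 and pandas 2.3.3 were used.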

Additional observations from a re-analysis of the deposited data

How the results depend on the processing

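Against 8 bound Vha genes, 5 were bound when a summit counted only for the gene of its nearest TSS (10% of all protein-coding genes), and 5 when a peak had to be among the top peaks of all 3 replicates (8.05%). For the leave-out of a replicate, the IDR list was kept and a peak had to be among the top peaks of both other replicates. That filter can only lower the count. It gave 5 to 7 genes, with 7 without replicate 1, 6 without replicate 2 and 5 without replicate 3 (10.2%, 8.94% and 9.26% of all genes). Of the 4 leading paralogs, 2 were bound by the nearest TSS. Of the 2 other paralogs, 1 was bound with a 250 bp window, 1 by the nearest TSS and 0 in the top peaks of all 3 replicates. The filter on the other replicates left 0 to 2 of them. It left 0 without replicate 2 and without replicate 3, settings that both required a top peak in replicate 1. The 2 single-copy genes were bound in all 9 alternatives, as was Vha16-1. The 19 genes with a pooled call became 11 with a 250 bp window (33.3%, and 35.3% of all genes). The mean of 8 genes in top peaks (13.6% of all genes) was 5.67 when the top sets were shortened (7.9%) and 10.3 when they were made 2 times as long (21.1%). The mean was 8 to 8 when a replicate was left out of it. With motif windows of 100 bp to either side, DRE and AP-1 were each in 1 member. The cause of these changes was not tested, except that stricter rules keep fewer peaks. Among the partner genes the count ran from 2 to 4 and among the lysosomal genes from 0 to 1 (alternatives chosen after seeing the data). No paired analysis was possible because there is 1 group.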

Other observations

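IDR peaks outside the promoter window lay within 2000 bp of 3 other members. No share over all protein-coding genes is given beside this count, and each of the 3 peaks was nearest to another gene's TSS. A peak of signal 228 (rank 435) lay 171 bp beyond the 3′ end of Vha14-1 and 829 bp from its TSS, and was nearest to the TSS of Gmppa, at 299 bp. A peak of signal 112 (rank 1691) lay 1753 bp before the start of Vha36-3, in an intron of AANATL7 and 164 bp from its TSS. A peak of signal 82.7 (rank 2743) lay 1112 bp beyond the end of VhaAC39-2, in an intron of unk and 957 bp from its TSS.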
